A study of Mus musculus with 8 samples.

Results

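The STAT family (signal transducers and activators of transcription) was read here through 6 genes, Stat2, Stat3, Stat4, Stat5a, Stat5b and Stat6. They were taken by gene name from a table of 54532 mouse genes, and all 6 passed the filter on low counts that kept 13981 genes for testing. The libraries were bulk RNA sequencing of CD4+ T cells, or helper T cells, taken from the spleen of WT mice. One group of 4 libraries came from cells given dimethyl succinate, a cell-permeable ester of the tricarboxylic acid cycle intermediate succinate, and the other group of 4 from cells given vehicle, which the headers of the deposited table call DMSO. The exposure lasted 3 days, and the 2 groups shared genotype, tissue and cell type. The question put to the family was whether its transcripts, those of its upstream kinases and receptors, or those of its target genes differ after the ester.

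STAT proteins wait in the cytoplasm until a cytokine brings its receptor chains together. Janus kinases (JAKs) bound to the receptor then phosphorylate a tyrosine of the STAT protein, which pairs with another through its SH2 domain, enters the nucleus and binds DNA. In helper T cells STAT4 is known for interleukin-12 signals and the T helper 1 fate, STAT6 for interleukin-4 and T helper 2, STAT3 for interleukin-6, interleukin-21 and interleukin-23 and T helper 17, and STAT5A and STAT5B for interleukin-2 and interleukin-7. STAT2 acts with IRF9 on interferon-stimulated genes. The libraries measure messenger RNA and hold no reading of phosphorylation, which is the step that switches these proteins on.

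Stat5b, Stat5a and Stat3 are neighbours on chromosome 11, at chr11:100780731-100850724 on the minus strand, chr11:100859351-100885169 on the plus strand and chr11:100885098-100939540 on the minus strand (GRCm38). Stat5b and Stat5a were 8626 bases apart, and the last exons of Stat5a and Stat3 overlapped tail to tail by 72 bases, which is 1.01% of the exon bases of Stat5a and 0.756% of those of Stat3. Stat6 at chr10:127642986-127660957 and Stat2 at chr10:128270559-128292849, both on the plus strand, were 609601 bases apart. Stat4 stood alone at chr1:51987148-52107189 on the plus strand.

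Stat5a and Stat5b are close copies, which bears on how far short reads tell them apart. Their coding sequences were identical at 90.8% of 2291 aligned bases, against 58.2% to 65.3% for every other pair of the 6. The longest identical stretch ran over 324 bases, coding bases 571 to 894 in both genes. It is shown for Stat5a by its first 288 bases and its end, and for Stat5b by its ends, with the shared stretch in capitals and the 12 flanking bases in lower case.
Stat5a coding strand, first 288 bases of the stretch: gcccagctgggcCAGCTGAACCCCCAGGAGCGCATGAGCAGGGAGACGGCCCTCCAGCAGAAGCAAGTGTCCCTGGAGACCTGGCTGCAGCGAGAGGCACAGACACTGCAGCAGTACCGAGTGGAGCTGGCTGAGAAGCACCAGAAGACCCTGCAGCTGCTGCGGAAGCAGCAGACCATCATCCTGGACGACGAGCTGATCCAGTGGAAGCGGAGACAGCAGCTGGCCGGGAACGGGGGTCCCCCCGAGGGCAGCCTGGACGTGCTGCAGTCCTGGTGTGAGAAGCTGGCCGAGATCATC
Stat5a coding strand, end of the stretch: AGGGCTGAGCACctgtgccagcag
Stat5b coding strand, start of the stretch: gcccagctgggaCAGCTGAACCCC
Stat5b coding strand, end of the stretch: AGGGCTGAGCACttgtgccagcag
Of the 50-base windows along the transcripts, 608 were common to both genes, 8.21% of those of Stat5a and 10.98% of those of Stat5b. How the authors' counting treated reads that fit both was not given in the sources used here, so the split of counts between Stat5a and Stat5b is uncertain to that extent. Stat4 shared 21.7% of its windows with Gm28177, an annotated transcript on the same strand, which held 2 to 9 counts under dimethyl succinate and 2 to 14 under vehicle. Stat2 and Stat3 shared 0.788% and 0.555% of their windows with any other gene, and Stat6 shared 0.

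The DNA letters that STAT proteins are known to bind were looked for in promoter windows of 300 bases, from 250 before to 50 after each gene's start, taken from RefSeq (GRCm38.p6). All 6 members had a window. The GAS element (TTC and GAA with 3 bases of any kind between), its longer form that STAT6 favours (the same with 4 bases between) and the interferon element bound by STAT2 with IRF9 (GAAA and GAAA with 2 bases between) were searched on both strands. They occurred in 8.3%, 6.95% and 3.44% of 32851 windows. Stat2 held an interferon element at position -222 from its RefSeq start and the longer form at -210. That start lies before the deposited gene start at chr10:128270559, since the window printed below ends before that base. Stat4 held an interferon element at -97 from a second, internal start. The GAS letters were in no window of the 6 members. The windows below show both members with a match, and Rsad2 and Irf1, target genes described further on, with matches in capitals.
Stat2 promoter, chr10:128270248-128270547, plus strand: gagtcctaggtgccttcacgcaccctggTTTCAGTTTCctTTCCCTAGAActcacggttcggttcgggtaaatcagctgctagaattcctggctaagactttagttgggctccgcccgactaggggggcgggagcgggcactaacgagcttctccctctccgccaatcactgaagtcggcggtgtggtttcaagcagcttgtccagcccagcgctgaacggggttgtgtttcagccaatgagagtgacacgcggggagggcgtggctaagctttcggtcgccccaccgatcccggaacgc
Stat4 internal start, chr1:52007990-52008289, plus strand: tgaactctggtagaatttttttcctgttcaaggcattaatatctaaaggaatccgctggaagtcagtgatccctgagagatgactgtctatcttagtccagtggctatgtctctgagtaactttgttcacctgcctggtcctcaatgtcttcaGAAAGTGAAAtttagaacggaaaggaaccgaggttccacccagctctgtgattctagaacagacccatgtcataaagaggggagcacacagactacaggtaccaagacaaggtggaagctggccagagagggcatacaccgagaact
Rsad2 promoter, chr12:26456403-26456702, minus strand: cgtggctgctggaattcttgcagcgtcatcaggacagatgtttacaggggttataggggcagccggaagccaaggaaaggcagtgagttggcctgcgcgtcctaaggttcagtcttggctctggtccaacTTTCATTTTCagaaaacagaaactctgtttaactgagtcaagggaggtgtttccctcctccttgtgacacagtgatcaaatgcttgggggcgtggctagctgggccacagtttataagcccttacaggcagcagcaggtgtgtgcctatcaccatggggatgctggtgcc
Irf1 promoter, chr11:53769764-53770063, plus strand: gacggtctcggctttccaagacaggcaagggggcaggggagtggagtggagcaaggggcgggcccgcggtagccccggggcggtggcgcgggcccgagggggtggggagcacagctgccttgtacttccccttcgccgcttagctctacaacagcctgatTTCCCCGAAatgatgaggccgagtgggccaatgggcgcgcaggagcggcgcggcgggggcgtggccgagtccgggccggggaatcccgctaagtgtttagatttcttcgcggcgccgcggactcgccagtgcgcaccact
In Rsad2, an antiviral interferon-stimulated gene, the capitals mark an interferon element at -120. In Irf1, an interferon regulatory factor, they mark a GAS element at -90. A match describes letters in a window and does not show that a factor was bound.

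Total counts ran from 14663698 to 16688854 per library under dimethyl succinate and from 13407295 to 15738869 under vehicle. Vehicle replicate 4 stood apart. Its mean correlation of log2 CPM, the count scaled to library size, with the other libraries was 0.981, against 0.989 to 0.991 for each of the others, and mitochondrial transcripts took 0.252% of its counts, against 1.16% to 1.43% under dimethyl succinate and 1.27% to 1.48% in the other vehicle libraries. Results are therefore given with and without it, except for some named genes that are given with all libraries only. The label of the cells fitted their markers: 8 genes of CD4 T cell identity summed to 2535 to 2725 CPM under dimethyl succinate and 1920 to 2550 under vehicle. Like the STAT genes, 7 of these 8 lay above 0, with a median log2 fold change of 0.14, and 4 of 8 with a median of 0.012 without vehicle replicate 4. Their part in the STAT values was not tested. Summed markers were low for CD8 T cells (5.85 to 7.54 against 5.50 to 5.98 CPM under vehicle), B cells (5.14 to 6.27 against 5.57 to 6.56), myeloid cells (19.6 to 24.8 against 15.6 to 21.4), NK cells (20.6 to 25.4 against 22.7 to 27.7) and stroma and endothelium (38.4 to 42.7 against 34.4 to 44.5, with Col3a1 and Cdh5 at 0). In bulk RNA, fewer cells of a type and less RNA per cell cannot be told apart.

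Within the family, Stat5a was the most abundant transcript per gene length and Stat4 the least. On the authors' FPKM scale, a level per length, Stat5a averaged 134 ± 7.33 under dimethyl succinate and 126 ± 5.6 under vehicle (SD, n = 4 each). Stat5b followed at 75.1 ± 2.61 under dimethyl succinate and 72.3 ± 1.56 under vehicle. The STAT5 pair made up 59.2% ± 0.72 of the summed FPKM of the 6 genes under dimethyl succinate and 60.3% ± 0.57 under vehicle (SD, n = 4 each).

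Stat6 averaged 65.5 ± 2.49 FPKM under dimethyl succinate and 56.4 ± 7.24 under vehicle (SD, n = 4 each). Stat3 averaged 52.5 ± 0.693 FPKM under dimethyl succinate and 50.7 ± 1.23 under vehicle. Stat6 and Stat3 were the only neighbours in this order whose ranges over the 8 libraries overlapped: Stat6 stood above Stat3 in 7 libraries, and in vehicle replicate 4 the ratio of Stat6 to Stat3 was 0.899. This order rests on the gene length, which took in all annotated exon bases, 9527 for Stat3 and 4402 for Stat6. By CPM Stat3 stood above Stat6, at 504 against 291 under dimethyl succinate and 485 against 249 under vehicle. Stat2 averaged 17.6 ± 0.947 FPKM under dimethyl succinate and 16.9 ± 0.962 under vehicle. Stat4 averaged 7.89 ± 0.883 FPKM under dimethyl succinate and 6.87 ± 0.721 under vehicle. By FPKM over all libraries Stat5a ranked 308 of the 13981 tested genes and Stat4 ranked 6379.

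**Figure D1:**
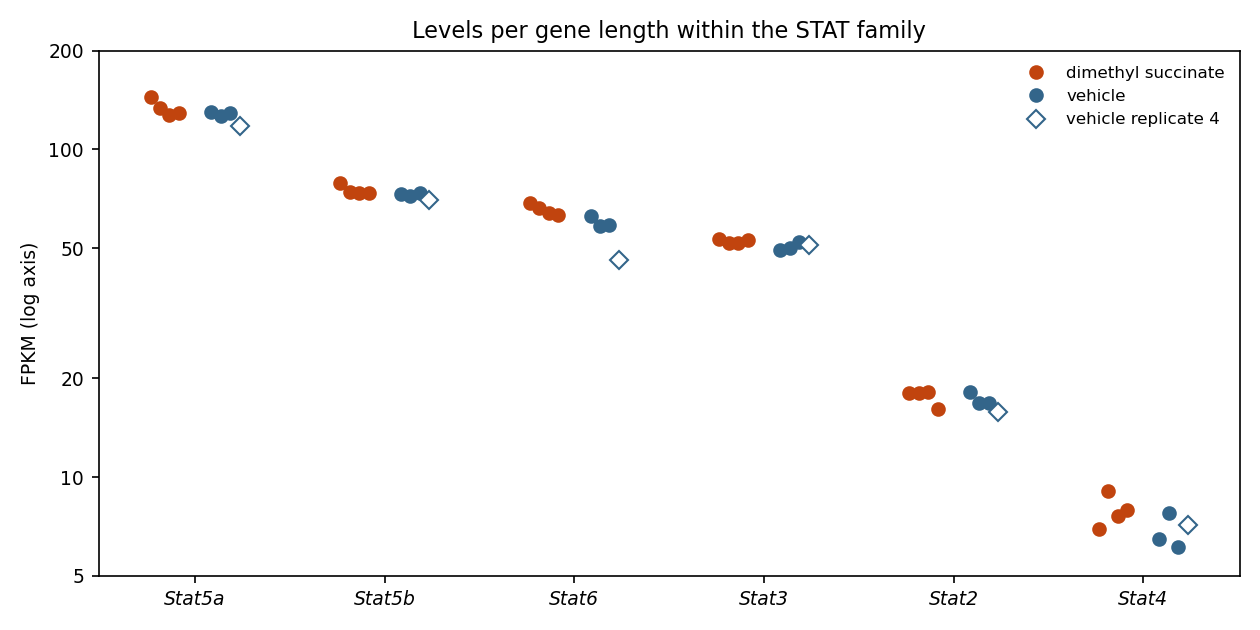
FPKM by the authors (log axis) of each STAT gene in each library, with dimethyl succinate at the left of each pair, vehicle at the right and vehicle replicate 4 as an open diamond. The genes run in order of level, and the ranges of neighbours are separate except for Stat6 and Stat3.

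The 6 STAT transcripts were estimated at 1.04-fold to 1.16-fold of their vehicle level under dimethyl succinate, and none passed the test. On the log2 scale every fold change lay above 0, from 0.056 to 0.22. The edgeR quasi-likelihood test with Benjamini-Hochberg adjustment called 0 of the 6 members and 0 of 13981 genes (0%), and DESeq2 and limma-voom likewise called 0. At an unadjusted p below 0.05 by edgeR, 1 of the 6 members stood, beside 805 of 13981 genes (5.76%). DESeq2, run without the filter on low counts, gave 867 of 27184 genes, and limma-voom 841 of 13981. A log2 fold change above 0 was found for 49.6% of all genes tested. The highest upper bound of the 95% intervals of the 6 members was 1.34-fold, so that a change of 1.5-fold lay outside each of them; it lay inside for 3.74% of the 8915 genes of at least 10 CPM. The median log2 fold change was 0.076 over the members and -0.0011 over all genes. Without vehicle replicate 4, the members' median was 0.058 with 0 called, where the same test called 28 of 14232 genes (0.197%), and 2 members, Stat6 and Stat4, stood at an unadjusted p below 0.05 with positive fold changes, beside 8.54% of all genes, of which 4.43% were higher and 4.12% lower.

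Stat6, the factor of interleukin-4 and interleukin-13 signals, had the lowest unadjusted p of the family. It stood at 305, 293, 283 and 281 CPM in the dimethyl succinate libraries, against 277, 258, 260 and 202 CPM in the vehicle libraries. Every dimethyl succinate library lay above every vehicle library, with vehicle replicate 4 far below the rest; groups did not overlap in this direction for 2.5% of all genes. The log2 fold change was 0.22 ± 0.087 (SE), with an unadjusted p of 0.0248 and an adjusted p of 0.802 by edgeR. Without vehicle replicate 4 it was 0.13 ± 0.048, with an adjusted p of 0.387. The last 40 exon bases of Stat6, 0.909% of them, overlap the end of Nab2, an EGR corepressor on the opposite strand that was named after its values were seen. Nab2 held 821 to 864 raw counts under dimethyl succinate and 585 to 647 under vehicle. Stat6 held 4397 to 4909 and 2906 to 4057. The log2 fold change of Nab2 was 0.32, and 0.30 without vehicle replicate 4. Whether the counting used strand was not given in the sources used here, and a part of Nab2 reads in the Stat6 values was not tested.

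Stat4, the factor of interleukin-12 signals, was the least abundant of the 6. It stood at 27.1, 35.3, 29.7 and 31.1 CPM under dimethyl succinate, against 25.3, 30.2, 23.8 and 27.7 CPM under vehicle. The groups overlapped, and the highest library was dimethyl succinate replicate 2. The log2 fold change was 0.20 ± 0.10 (SE), with an adjusted p of 0.802 by edgeR, and 0.22 ± 0.095 without vehicle replicate 4, with an adjusted p of 0.509. Leaving out dimethyl succinate replicate 2 brought it to 0.13, the lowest value over the libraries left out in turn.

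Stat5a stood at 1036, 957, 918 and 931 CPM under dimethyl succinate, against 933, 908, 927 and 841 CPM under vehicle. Dimethyl succinate replicate 1 was the highest library and vehicle replicate 4 the lowest, and the other 6 lay between 908 and 957. The log2 fold change was 0.090 ± 0.068 (SE), with an adjusted p of 0.811 by edgeR, and 0.058 without vehicle replicate 4. Stat5b stood at 441, 414, 410 and 412 CPM under dimethyl succinate, against 407, 402, 411 and 389 CPM under vehicle. The same 2 libraries were highest and lowest as for Stat5a, its near copy. The change of Stat5b was 0.060 ± 0.057 (log2, SE), with an adjusted p of 0.826. The ratio of Stat5a to Stat5b in FPKM was 1.78 ± 0.038 under dimethyl succinate and 1.74 ± 0.044 under vehicle (SD, n = 4 each).

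Stat3, shared by the interleukin-6, interleukin-10 and interleukin-21 pathways, was the most even of the 6. It stood at 510, 497, 498 and 510 CPM under dimethyl succinate, against 473, 480, 499 and 487 CPM under vehicle. The groups overlapped through vehicle replicate 3. The log2 fold change was 0.056 ± 0.056 (SE), with an adjusted p of 0.836 by edgeR. Stat2, the interferon factor, stood at 108, 108, 108 and 96.7 CPM under dimethyl succinate, against 108, 101, 100.4 and 93.5 CPM under vehicle. Both groups covered nearly the same range. Its log2 fold change was 0.062 ± 0.066, with an adjusted p of 0.844, and 0.029 without vehicle replicate 4. In the authors' deposited table the log2 fold changes of the 6 genes were likewise above 0, from 0.050 for Stat3 to 0.22 for Stat6, with adjusted p-values from 0.782 to 0.883.

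**Figure D2:**
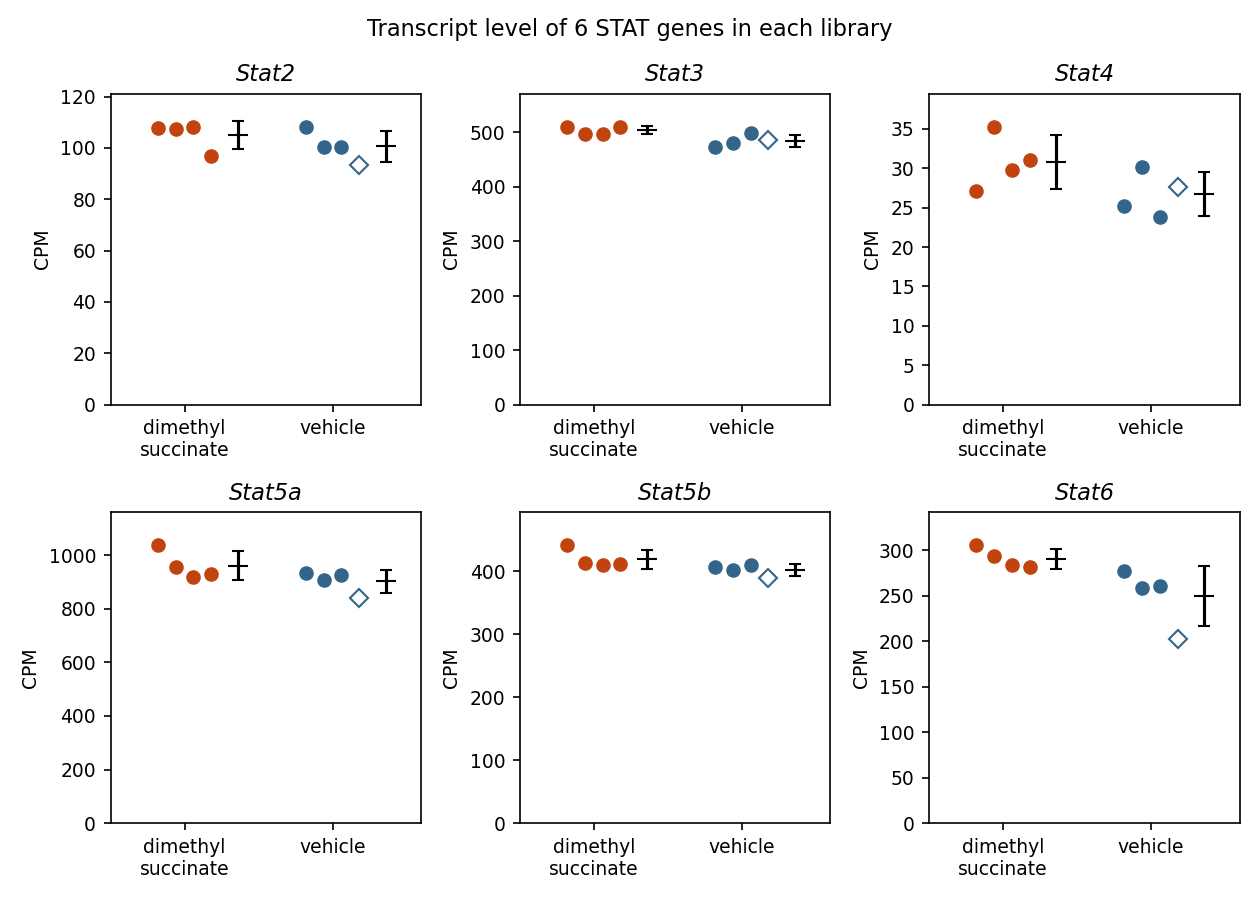
CPM of each STAT gene in each library, with dimethyl succinate left of vehicle, vehicle replicate 4 as an open diamond and bars for the mean ± SD of 4 libraries. The groups of Stat6 are separate, with 281 CPM the lowest under dimethyl succinate and 277 the highest under vehicle, and those of the other genes overlap.

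Upstream of the STATs, the JAK kinases did not share a direction. Jak1 averaged 384 ± 9.63 CPM under dimethyl succinate and 405 ± 12.7 under vehicle (SD, n = 4 each), a log2 fold change of -0.077 ± 0.057 (SE). Jak2 averaged 535 ± 35.9 CPM under dimethyl succinate and 561 ± 17.2 under vehicle, a log2 fold change of -0.066 ± 0.066. Jak3, the kinase of the common gamma chain, averaged 367 ± 25.4 CPM under dimethyl succinate and 346 ± 2.59 under vehicle, a log2 fold change of 0.086 ± 0.063. Tyk2 averaged 153 ± 10.8 CPM under dimethyl succinate and 139 ± 8.15 under vehicle, a log2 fold change of 0.13 ± 0.068. The groups overlapped for each of the 4, and edgeR called none, with adjusted p-values from 0.802 to 0.835.

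**Figure D3:**
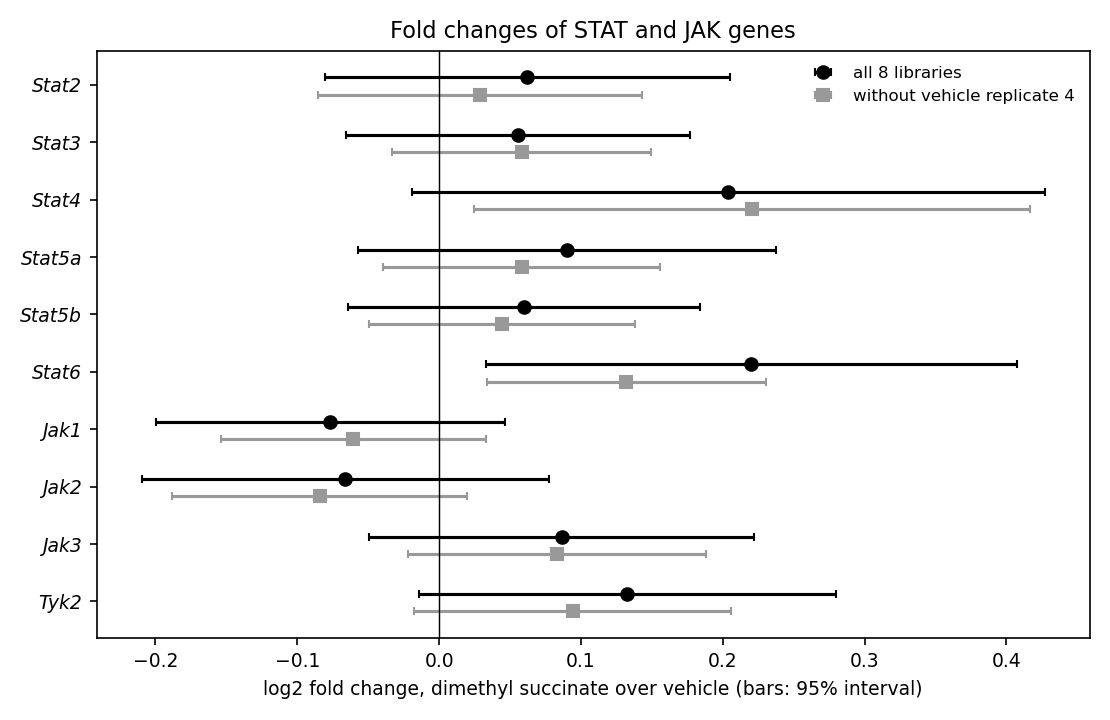
Log2 fold change of dimethyl succinate over vehicle for 6 STAT and 4 JAK genes, with 95% intervals, from all 8 libraries (black circles) and without vehicle replicate 4 (grey squares). All 6 STAT values lie above 0. With all libraries the interval of Stat6 starts at 0.033 and those of the other STAT genes include 0; without vehicle replicate 4 the interval of Stat4 also lies above 0, starting at 0.025.

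Receptor chains gave 0 adjusted calls in any of 4 lists by edgeR, and at an unadjusted p below 0.05 the lists held 0 genes higher (2.93% of all genes) and 1 lower (2.83% of all genes). Of 8 tested receptors of the common gamma chain family, 6 lay above 0, with a median log2 fold change of 0.014, and 3 lay above 0, with a median of -0.035, without vehicle replicate 4. Il2rg, the common gamma chain itself, averaged 297 ± 22.7 CPM under dimethyl succinate and 269 ± 51.6 under vehicle (SD, n = 4 each). The fold change was 0.14 on the log2 scale, and 0.011 without vehicle replicate 4, whose 194 CPM was the lowest value. Il15ra, the interleukin-15 receptor alpha chain, had a log2 fold change of 0.30, and 0.12 without that library.

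Il10ra, the ligand-binding chain of the interleukin-10 receptor that signals through STAT3, was the receptor lower at an unadjusted p below 0.05. It averaged 43.1 ± 1.78 CPM under dimethyl succinate and 50.3 ± 3.13 under vehicle (SD, n = 4 each), and the groups did not overlap (2.32% of all genes in this direction). This gave a log2 fold change of -0.22 ± 0.073 (SE), with an adjusted p of 0.802 by edgeR. The list of gp130, interleukin-10 and interleukin-27 receptors had 4 of 6 above 0 and a median of 0.12, or 0.041 without vehicle replicate 4. Il6st, which encodes gp130, had a log2 fold change of 0.16, and 0.068 without vehicle replicate 4. Il12rb2, the chain of the interleukin-12 receptor that recruits STAT4, averaged 71.2 ± 3.26 CPM under dimethyl succinate and 61.9 ± 14.6 under vehicle. Its log2 fold change was 0.20, and 0.049 without vehicle replicate 4. The list of interleukin-12 and interleukin-23 receptors had 2 of 3 above 0 and a median of 0.20, and 3 of 3 with a median of 0.049 without that library. Interferon receptors had 3 of 4 above 0 and a median of 0.091, and 2 of 4 with a median of 0.012 without it. Ifnar2, a chain of the type I receptor, had a log2 fold change of 0.17, and 0.13 without vehicle replicate 4.

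Cytokines that signal through JAKs and STATs held, among 15 tested, 3 genes with an unadjusted p below 0.05 and a higher level (2.93% of all genes) and 2 with a lower level (2.83% of all genes), and 0 adjusted calls by edgeR. Lif, a gp130 cytokine that acts through STAT3, averaged 234 ± 2.95 CPM under dimethyl succinate and 271 ± 6.51 under vehicle (SD, n = 4 each). The groups did not overlap, which was found in this direction for 2.32% of all genes. The log2 fold change of Lif was -0.21 ± 0.053 (SE), with an adjusted p of 0.646 by edgeR. Without vehicle replicate 4 it was -0.20, with an adjusted p of 0.0533. Il2, the T cell growth factor upstream of STAT5, averaged 125 ± 11.5 CPM under dimethyl succinate and 101 ± 11.9 under vehicle. The log2 fold change of Il2 was 0.31 ± 0.092, with an adjusted p of 0.778 by edgeR. Without vehicle replicate 4 it was 0.24, with an adjusted p of 0.135. Il10 had a log2 fold change of 0.20 ± 0.088. The others were Il13, given with the STAT6 targets, and Il6, named after its values were seen, at -0.57 with an adjusted p of 0.802. The level of Il6 was low, at 1.34 ± 0.24 CPM under dimethyl succinate and 1.98 ± 0.41 under vehicle, with 200 counts over all libraries. The median of the list was 0.038, and 0.11 without vehicle replicate 4.

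Of 8 SOCS genes, which encode feedback inhibitors of the pathway, 2 lay above 0, and the median log2 fold change was -0.079. None stood at an unadjusted p below 0.05, beside 5.76% of all genes, and edgeR called 0. Socs1, an inhibitor of JAKs, averaged 182 ± 4.28 CPM under dimethyl succinate and 195 ± 7.35 under vehicle (SD, n = 4 each), with no overlap of the groups, which was found in this direction for 2.32% of all genes. Its log2 fold change was -0.096 ± 0.055 (SE). For Socs3, which acts on gp130 signals, it was -0.12 ± 0.064, and for Socs6 -0.23 ± 0.11, or -0.13 without vehicle replicate 4. Without vehicle replicate 4, 1 of the 8 lay above 0.

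Among 10 PIAS proteins and phosphatases, 6 lay above 0. Their median was 0.034 with all libraries and 0.017 when vehicle replicate 4 was left out. With all libraries 0 of them stood at an unadjusted p below 0.05 by edgeR (5.76% of all genes). Without vehicle replicate 4, 0 were higher (4.43% of all genes) and 1, Ptpn2, was lower (4.12% of all genes). On the log2 scale the difference was -0.17 ± 0.080 (SE) for Ptpn2, a phosphatase of JAKs and STATs, and 0.15 ± 0.073 for Ptpn6, which encodes SHP-1, or 0.081 without vehicle replicate 4. Of 9 partners and coactivators, 7 lay above 0, with a median of 0.064, and 4 lay above 0, with a median of -0.011, without vehicle replicate 4. At an unadjusted p below 0.05 by edgeR, 0 partners were higher (2.93% of all genes) and 1 lower (2.83% of all genes). Without vehicle replicate 4, 1 was higher (4.43% of all genes) and 0 lower (4.12% of all genes). The lower partner was Nmi, a STAT-interacting protein, at 21.5 ± 1.42 CPM under dimethyl succinate and 24.8 ± 1.23 under vehicle (SD, n = 4 each). Its groups did not overlap (2.32% of all genes in this direction), and its log2 fold change was -0.20 ± 0.085. Ep300, a histone acetyltransferase, had a log2 fold change of 0.23, and 0.085 without vehicle replicate 4.

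Target genes were read in 5 lists, and edgeR called 0 in each with all libraries. Of 23 STAT2 and IRF9 targets, 9 lay above 0. Their median was -0.031 with all libraries and -0.062 when vehicle replicate 4 was left out. With all libraries 1 gene was higher at an unadjusted p below 0.05 (2.93% of all genes) and 0 were lower (2.83% of all genes). Without vehicle replicate 4, 3 were higher (4.43% of all genes) and 1 lower (4.12% of all genes). The gene higher with all libraries was Oasl2, of the oligoadenylate synthetase-like family. It averaged 12.1 ± 1.93 CPM under dimethyl succinate and 8.14 ± 0.707 under vehicle (SD, n = 4 each). The groups did not overlap, which was found in this direction for 2.5% of all genes. The log2 fold change of Oasl2 was 0.58 ± 0.13 (SE), with an adjusted p of 0.646 by edgeR. Without vehicle replicate 4 it was 0.55, with an adjusted p of 0.0912. Rsad2, whose promoter is printed above, averaged 1.67 ± 0.410 CPM under dimethyl succinate and 2.40 ± 0.466 under vehicle. The log2 fold change of Rsad2 was -0.51 ± 0.24, and -0.37 without vehicle replicate 4. Of 18 targets with a promoter window, 10 held the interferon element, and 4 of those 10 lay above 0, with a median of -0.042.

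Of 18 STAT3 targets, 10 lay above 0, with a median of 0.063. By edgeR 0 of them stood at an unadjusted p below 0.05, beside 5.76% of all genes. Without vehicle replicate 4 the median was 0.0087, and 2 genes were higher (4.43% of all genes) and 2 lower (4.12% of all genes) at that p. For Bcl6, a repressor that marks follicular helper T cells, the fold change was 0.32 ± 0.15 (log2, SE), and 0.24 without vehicle replicate 4. For Il17a, the T helper 17 cytokine, it was 0.30 ± 0.15, and 0.21 without that library. Mcl1, a survival protein, had a log2 fold change of -0.23, and -0.079 without vehicle replicate 4, which held 977 CPM of it.

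Of 13 STAT4 targets, 7 lay above 0, with a median of 0.052, and 2 higher and 2 lower genes stood at an unadjusted p below 0.05, against 2.93% and 2.83% of all genes. Irf1 averaged 461 ± 34.8 CPM under dimethyl succinate and 533 ± 16.9 under vehicle (SD, n = 4 each), a log2 fold change of -0.21 ± 0.068 (SE) with an adjusted p of 0.802. The value was 0.26 ± 0.10 for Il18r1, the interleukin-18 receptor, and -0.15 ± 0.062 for Map3k8, a kinase of the ERK pathway. Nkg7, a protein of cytotoxic granules named because its call changed, had a log2 fold change of 0.28 with an adjusted p of 0.802, and of 0.44 with an adjusted p of 0.00831 without vehicle replicate 4. It was the only gene of the target lists called in that fit, which called 28 of 14232 genes (0.197%). In the same fit 9 of the 13 STAT4 targets lay above 0, with a median of 0.068. At an unadjusted p below 0.05, 3 were higher (4.43% of all genes) and 2 lower (4.12% of all genes).

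Of 18 STAT5 targets, 11 lay above 0, with a median of 0.0094, and 6 lay above 0, with a median of -0.039, without vehicle replicate 4. Foxp3, the factor of regulatory T cells, had a log2 fold change of 0.30, and 0.11 without vehicle replicate 4, whose 37.1 CPM was the lowest value. For Bcl2, a survival protein, the value was -0.13 ± 0.070 (SE), and -0.17 without vehicle replicate 4. With all libraries 0 STAT5 targets stood at an unadjusted p below 0.05 by edgeR (5.76% of all genes). Without vehicle replicate 4, 1 was higher (4.43% of all genes) and 1, Bcl2, was lower (4.12% of all genes). Of 13 STAT6 targets, 5 lay above 0, with a median of -0.027, and 2 lay above 0 without vehicle replicate 4, with a median of -0.10. Il10 and Il13 were the 2 STAT6 targets higher at an unadjusted p below 0.05 (2.93% of all genes), and 0 were lower; without vehicle replicate 4, 1 was higher (4.43% of all genes) and 3 lower (4.12% of all genes). Il13, a T helper 2 cytokine, had a log2 fold change of 0.31 ± 0.14, and 0.17 without that library. The GAS letters were in 2 of 15 STAT3, 5 of 12 STAT4 and 4 of 13 STAT5 targets with a promoter window, and the longer form in 1 of 13 STAT6 targets, against 9.55% and 8.01% of 27025 genes. With all libraries, 1 of these 2 STAT3, 4 of 5 STAT4, 4 of 4 STAT5 and 0 of 1 STAT6 targets lay above 0. Of all genes tested, 49.6% lay above 0. The median was 0.098 for the STAT3, 0.26 for the STAT4 and 0.21 for the STAT5 targets. The STAT6 target, Il4, stood at -0.12. The STAT4 targets stood at 0.45 (Ifng), 0.44 (Nkg7), 0.23 (Il18r1), 0.049 (Il12rb2) and -0.20 (Irf1) without vehicle replicate 4. Without vehicle replicate 4, the STAT5 targets stood at 0.11 (Foxp3), 0.060 (Gzmb), 0.027 (Lta) and -0.027 (Cish).

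**Figure D4:**
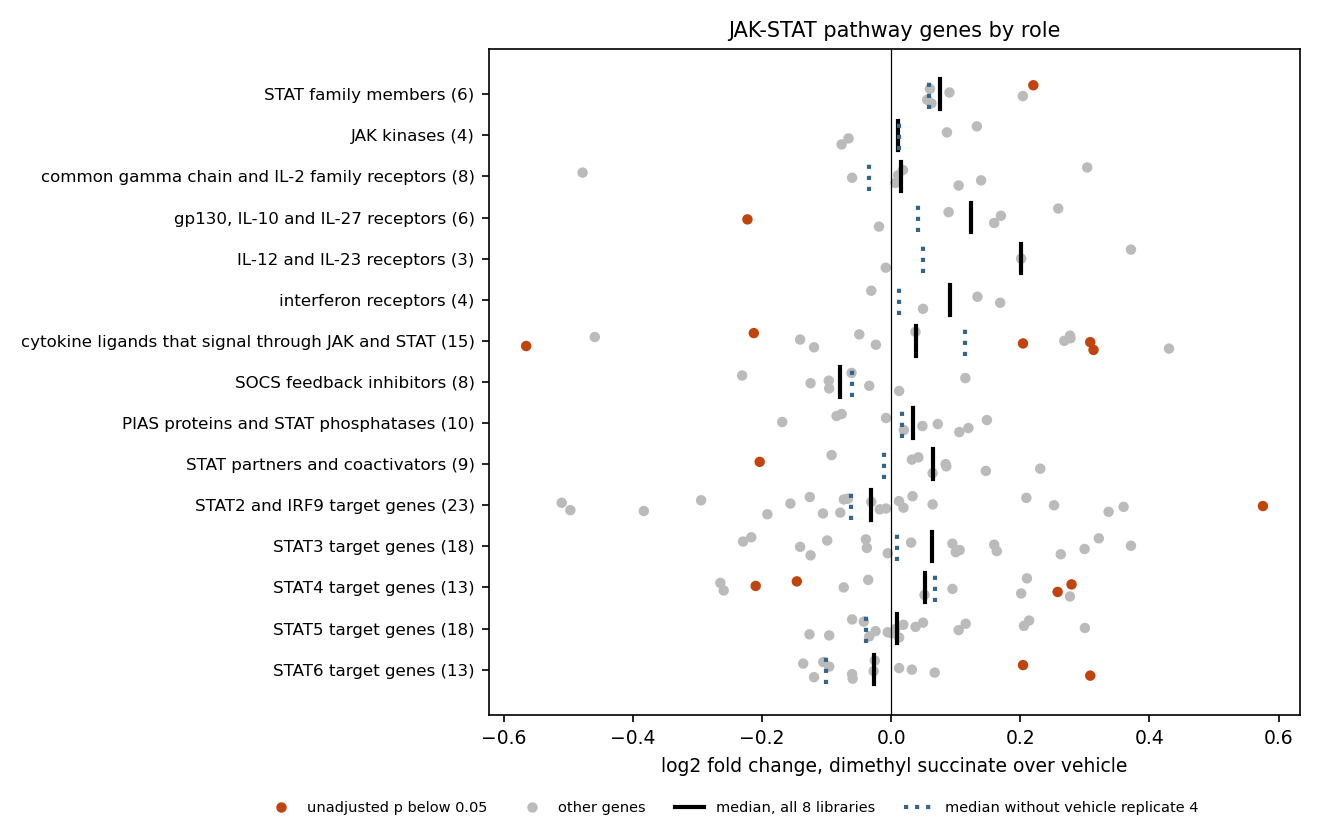
Log2 fold change of dimethyl succinate over vehicle for the genes of each list, with the number tested in brackets, points in red for an unadjusted p below 0.05, and bars for the median with all libraries (black) and without vehicle replicate 4 (dotted). All 6 STAT genes lie above 0, and each other list drawn holds genes on both sides of it; marker lists of cell types are not drawn.

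For each STAT gene, the 2 genes of most similar pattern over the 8 libraries were found among 8914 genes of at least 10 CPM, by the mean absolute difference of log2 CPM deviations from each gene's own mean. Synj2bp was 1 of the 2 for Stat2, at 0.0212. For Stat3 they were Ebp, an enzyme of cholesterol synthesis, at 0.0142, and Nepro at 0.0162. Nmt1, an N-myristoyltransferase, was 1 of the 2 for Stat5a, at 0.0179. For Stat5b they were Scpep1 at 0.0082, the closest match of all 6, and Trappc10 at 0.0135. Stat6 was matched by AI467606 at 0.0235 and by Akna, a transcription factor gene, at 0.0248. Stat4 had the most distant matches, Tmem71 at 0.0527 and Sntb1 at 0.0648.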

How the data were processed

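Per the labels' protocols, TRIzol was used to extract RNA for the 8 libraries, which were built with a kit for mRNA-seq. HISAT2 2.0.5, an aligner, is named in the submitters' processing notes. Not given in the sources used here are the counting tool, annotation, genome build and use of strand. The authors deposited raw counts and FPKM per library, per the file headers. Group means, called a normalised signal here because the headers give no unit, log2 fold changes and p-values were deposited by the authors beside them, with gene lengths. No column of per-sample values was left unmapped. Gene coordinates were read as GRCm38, since 99.2% of 54409 genes matched to GENCODE M21 had an equal start or end.

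From the counts, edgeR 4.0.16 in R 4.3.3 (filterByExpr, TMM factors, robust quasi-likelihood F test, two-sided) compared 4 with 4 libraries with no covariate, adjusted over 13981 genes by Benjamini-Hochberg at 0.05. Each standard error was derived from its F value, with 95% intervals. CPM used TMM-scaled library sizes, and log2 CPM a prior count of 2. The test was checked on simulated counts with planted log2 fold changes of 1 in either direction. These are larger than any estimated for the members, so the check does not bear on changes of the members' size. Within each group, the mean chi-square per gene between pairs of replicates was 2.12 or more, where counting alone gives about 1, and none was treated as a duplicate. The labels do not say whether replicates were separate animals or cultures; p-values therefore measure only how these samples spread, and that spread may be technical.

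The members and the 21 lists were chosen with earlier results of these data known. Named genes were the 6 members, the 4 JAK kinases, up to 3 genes of each other list with the smallest unadjusted p, and 2 genes of most similar pattern per member; some of these are not reported here. Exceptions are said to be so. Alternatives were DESeq2 1.42.0, limma 3.58.1 (voom, and trend on log2(FPKM + 1)), other scaling factors, other filters, a block for the replicate number, and leaving out each library.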

Additional observations from a re-analysis of the deposited data

Results flagged for a closer look

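Of 112 groups of 4 libraries examined over 56 named genes, 5 held a library far from the other 3; chance flags about 1 in 20 such groups. Among the STAT genes, Stat2 stood at 96.7 CPM in dimethyl succinate replicate 4, below the other libraries of its group, and Stat5b at 441 CPM in dimethyl succinate replicate 1, above the others. In vehicle replicate 4, Mcl1 stood at 977 CPM and Il12rb1, the shared chain of the interleukin-12 and interleukin-23 receptors, at 363 CPM, both above the other vehicle libraries. Foxp3 stood at 37.1 CPM in the same library, below the other vehicle libraries.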

How the results depend on the processing

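Over 16 alternatives, 0 STAT genes were called by any, and no fold change of a STAT gene changed direction. The log2 fold change of Stat6 ran from 0.13 to 0.28 over the libraries left out in turn and from 0.22 to 0.23 over the other alternatives, with adjusted p from 0.387 to 0.993. Its unadjusted p was below 0.05 in 15 of 17 settings, and that of Stat4 in 5 of 17. The count of genes called was 0 with all libraries, 6 with no filter on low counts, and from 0 to 28 over the libraries left out, with 28 without vehicle replicate 4. Over the libraries left out, the median ran from 0.029 to 0.098 for STAT4 targets and from 0.049 to 0.30 for interleukin-12 and interleukin-23 receptors. It changed sign for gamma chain receptors (-0.035 to 0.060), partners (-0.011 to 0.12), STAT5 targets (-0.039 to 0.026) and STAT6 targets (-0.10 to 0.0012). The causes were not tested. With 4 libraries a group, the 95% intervals of the members still held changes of up to 1.34-fold.

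The replicate number as a block called 1 gene in all and 0 STAT genes. Libraries of the same number deviated together with correlations of -0.014, 0.011, 0.056 and 0.13, and 3 of 8 libraries correlated best with their own number, so the numbers were not taken as pairs.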
